A study of Mus musculus with 6 samples.

Results

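The EGF-like ligands amphiregulin (Areg), epiregulin (Ereg), betacellulin (Btc) and heparin-binding EGF-like growth factor (Hbegf), their receptor gene Egfr, and the cumulus matrix genes Has2, Tnfaip6 and Ptx3 were examined in whole mouse ovaries. These 8 genes were chosen by symbol from the 35415 genes of a table of read counts, and all 8 were present in it. They were chosen for their known roles, with earlier results of these data known. The ovaries were collected at estrus, at an age of 3 months, and were profiled by bulk RNA sequencing. The labels give no time relative to ovulation. There were 3 wild-type and 3 Rnf111+/- libraries, and each is labelled as coming from a different mouse. The product of Rnf111 is Arkadia, a ubiquitin ligase that removes inhibitors of TGF-beta family signalling, and the study asked what loss of 1 copy does in a model of premature ovarian insufficiency. A pair of mouse models was made by CRISPR-Cas9 editing. The model sequenced, the strain and any treatment were not given in the sources used here.

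In a preovulatory follicle, luteinizing hormone acts on the granulosa cells of the follicle wall, which release EGF-like ligands from their surface. These ligands bind the EGF receptor on the cumulus cells around the oocyte, and the cumulus cells then build a sticky extracellular matrix while the oocyte resumes meiosis. Hyaluronan made by the synthase HAS2 is the backbone of that matrix, and it is stabilised by TNFAIP6 and PTX3 together with heavy chains of the inter-alpha-trypsin inhibitor family.

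Library totals ranged from 38261449 to 39474515 counts, and 16841 genes were expressed highly enough to be tested. Rnf111 itself was at 53.9 ± 0.477 CPM (a read count scaled to the size of its library) in wild-type and 44.6 ± 0.394 CPM in heterozygous ovaries (SD, n = 3 each). This was a log2 difference of -0.27 ± 0.07 (SE, edgeR adjusted p = 0.04). Leaving out any library but wild-type replicate 3 ended that call. Wild-type replicate 3 stood apart from the other libraries. It held 5730 counts of Ovgp1, a secretory gene of the oviduct, where the other 5 libraries held 71 to 315. The summed level of 11 granulosa and cumulus markers was 2470 CPM in it, against 4783 to 7208 CPM in the others. Oocyte markers (Gdf9, Bmp15, Zp1 and others, 9 of 9 tested) and granulosa markers (11 of 11 tested) passed the filter on low counts, so the ovary label matched its markers. RNA of a whole organ was measured, so fewer cells of a type and less RNA per cell cannot be told apart.

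Of the 8 genes, 7 passed the filter on low counts and were tested, and Areg did not pass. Among those 7, Hbegf rose and Ereg and Egfr fell in heterozygous ovaries, while Btc, Has2, Tnfaip6 and Ptx3 did not pass the test. The share called was 42.9% (3 of 7), against 9.64% of all tested genes (3.9% higher and 5.74% lower). Wild-type and heterozygous values were fully apart for 4 of the 7 (57.1%), against 32% of all tested genes. Because the genes were chosen with earlier results known, these shares are not independent support. The shares over all tested genes are also the background for counts in the lists below. The median log2 fold change of the 7 genes was 0.29, and that of all tested genes was -0.01. That member median is the value of Has2 (0.29 ± 0.92, SE), whose sign changed with the fit, so it shows no shift of the group. Without wild-type replicate 3, 4 of the genes were called, against 16.2% of tested genes in that fit. No member was called in the fits without heterozygous replicate 1 and without heterozygous replicate 3.

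The sequence before the annotated start was available for 5 of the 8 genes, Areg, Btc, Egfr, Tnfaip6 and Ptx3, from RefSeq on build GRCm38.p6. The read counts are of build GRCm39, so these coordinates belong to the reference sequence alone. Motifs were searched in the 250 bases before each start. Except for the TATA box, a general promoter element, these motifs bind factors known to act in the response to luteinizing hormone or TGF-beta. They were the cAMP response element TGACGTCA, its core TGACG, the AP-1 site TGANTCA, the C/EBP site TTGCNNAA and the SMAD palindrome GTCTAGAC, all on both strands, and the TATA box TATAAA on the gene's own strand. The cAMP response element contains the core on each strand. The 4 windows that hold a match are printed to show where it lies, 5′ to 3′ on the gene's strand, with matches in capitals.
Areg (chr5:91139349-91139598, plus strand): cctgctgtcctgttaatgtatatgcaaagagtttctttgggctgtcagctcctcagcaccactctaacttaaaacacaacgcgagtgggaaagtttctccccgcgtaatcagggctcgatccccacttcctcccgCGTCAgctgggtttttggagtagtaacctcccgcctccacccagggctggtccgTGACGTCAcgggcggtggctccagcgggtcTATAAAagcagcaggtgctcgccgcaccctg
Btc (chr5:91402995-91403244, minus strand): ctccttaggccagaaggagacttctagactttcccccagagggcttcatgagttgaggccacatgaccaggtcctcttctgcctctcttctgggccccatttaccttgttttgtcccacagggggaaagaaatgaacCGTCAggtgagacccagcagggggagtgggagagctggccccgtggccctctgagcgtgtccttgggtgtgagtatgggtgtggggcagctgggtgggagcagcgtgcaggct
Tnfaip6 (chr2:52037863-52038112, plus strand): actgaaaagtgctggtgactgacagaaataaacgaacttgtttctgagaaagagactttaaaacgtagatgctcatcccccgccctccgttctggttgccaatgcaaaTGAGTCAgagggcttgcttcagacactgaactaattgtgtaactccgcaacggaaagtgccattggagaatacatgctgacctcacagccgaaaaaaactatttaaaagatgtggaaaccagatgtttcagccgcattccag
Ptx3 (chr3:66219637-66219886, plus strand): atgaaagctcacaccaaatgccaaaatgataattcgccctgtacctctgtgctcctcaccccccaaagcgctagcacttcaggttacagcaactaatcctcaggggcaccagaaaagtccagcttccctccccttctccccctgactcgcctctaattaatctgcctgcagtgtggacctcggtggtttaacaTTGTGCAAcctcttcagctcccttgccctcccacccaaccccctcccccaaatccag
Areg holds a complete cAMP response element 61 to 54 bases before its start, a TATA box at 31 to 26 bases and a separate core at 115 to 111 bases. Btc, which lies near it on chromosome 5, holds a core alone, 113 to 109 bases before its start. Tnfaip6 holds an AP-1 site at 142 to 136 bases and Ptx3 a C/EBP site at 57 to 50 bases. In 32851 RefSeq windows of the same length, the complete element was found in 1.55%, the core in 17.8%, the AP-1 site in 6.75%, the C/EBP site in 9.56%, the TATA box in 7.59% and the SMAD palindrome in 0.167%. The Egfr window matched none of these letters, and no window of the 5 matched the SMAD palindrome.

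Areg, the ligand best known for carrying the ovulatory signal from mural granulosa to cumulus cells, was close to the detection limit. Wild-type replicates 1, 2 and 3 held 4, 4 and 24 counts (0.104, 0.104 and 0.613 CPM), and heterozygous replicates held 1, 0 and 1 (0.0249, 0 and 0.0261 CPM). Every heterozygous library was below every wild-type library, and 24 of the 32 wild-type counts came from replicate 3. A count of 0 in heterozygous replicate 2 allows a level of up to 0.0766 CPM (3 counts). Summed over libraries, the wild-type level was 16.2 times the heterozygous level, with a counting interval of 4.13 to 140. Without wild-type replicate 3 the ratio was 6.12 (1.22 to 59.1). In an exact two-sided permutation test p was 0.1, the smallest value possible with 3 libraries a group. With no filter on low counts, edgeR put Areg at -3.77 ± 1.28 (adjusted p = 0.0939), so a fall of Areg was not established at this depth. Of the surface and oviduct epithelium markers, 10 of 10 were detected, with a summed level of 724 CPM in wild-type replicate 3 against 532 and 559 CPM in the other wild-type libraries and 396 to 440 CPM in heterozygous libraries. Ovgp1 alone was at 146 CPM in wild-type replicate 3, against 1.85 and 6.27 CPM in the other wild-type libraries. Of the other markers, Krt7, Krt8, Krt18, Krt19 and Pax8 were highest of the wild type in replicate 3. Upk3b, Msln and Epcam were lowest in it, and Lrrn4 lay between. The part of this epithelium in the Areg count of that library was not tested.

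Ereg, the partner of Areg in the ovulatory cascade, fell 5.27-fold. Wild-type replicates were at 1.67, 5.16 and 2.48 CPM and heterozygous replicates at 0.548, 0.868 and 0.34 CPM. The lowest wild-type library was thus above the highest heterozygous one, although wild-type libraries ranged 3.09-fold among themselves (counting interval 2.32 to 4.16). The log2 fold change was -2.40 ± 0.51 (SE, adjusted p = 0.0248), between means of 3.1 ± 1.83 and 0.585 ± 0.266 CPM (SD, n = 3 each). The direction was the same in all 6 fits that left out 1 library, but the call was lost in 4 of them. It was lost without wild-type replicate 2, which held most Ereg (-1.81, adjusted p = 0.0781), and without heterozygous replicates 1, 2 and 3 (0.0948, 0.0559 and 0.0952). With limma-voom and all libraries it missed the threshold (adjusted p = 0.0515). In RefSeq, Ereg overlaps the long noncoding RNA gene Gm19610, and without a known strand setting reads of the shared stretch cannot be told apart. Gm19610 had 86, 116 and 73 counts in wild-type and 32, 73 and 75 in heterozygous libraries (-0.62 ± 0.38, adjusted p = 0.358).

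Btc, the third ligand of the ovulatory group, was at 4.54, 2.54 and 4.16 CPM in wild-type and at 2.07, 2.32 and 2.38 CPM in heterozygous libraries. The genotypes did not overlap, but wild-type replicate 2 lay close to the heterozygous range. The log2 fold change of -0.73 ± 0.27 did not pass (adjusted p = 0.131), and it passed in none of the 13 alternative fits (0.0738 to 0.332). Epgn, Ereg, Areg and Btc are neighbours on chromosome 5, and the luteal gene Parm1 is the next protein-coding gene after Btc. Epgn, which encodes epigen, had 1 to 6 counts in every library and was not tested. Parm1 fell (-2.22 ± 0.16, adjusted p = 0.000323), and Mthfd2l, a mitochondrial folate enzyme gene on the other side of the ligand genes, did not pass (0.33 ± 0.17, adjusted p = 0.258).

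Hbegf was the 1 ligand of the 4 with a higher level in heterozygous ovaries. It encodes a membrane-bound EGF-like factor that binds heparan sulfate and can also act through ERBB4. Its level was 3.94, 4.56 and 1.92 CPM in wild-type libraries and 13.2, 9.55 and 12.1 CPM in heterozygous libraries. The lowest heterozygous library was above the highest wild-type library, and wild-type replicate 3 was the lowest of all. Hbegf rose 3.35-fold, a log2 fold change of 1.74 ± 0.31 (SE, adjusted p = 0.0129), from 3.47 ± 1.38 to 11.6 ± 1.89 CPM (SD, n = 3 each). Without wild-type replicate 3 the log2 fold change was 1.46 ± 0.19 (adjusted p = 0.000497). The call was lost without heterozygous replicate 1 (1.64, adjusted p = 0.0523) and without heterozygous replicate 3 (1.72, adjusted p = 0.0567). It held in the other 4 left-out fits and in all 7 other alternatives. The granulosa and cumulus marker sum was also lowest in wild-type replicate 3, at 2470 CPM, with 4783 and 5131 CPM in the other wild-type and 5207 to 7208 CPM in heterozygous libraries, and 2 of the 11 markers rose (Cyp19a1 and Slc38a3). Macrophage and neutrophil markers, another possible source of Hbegf, had no call among 9 tested, with sums of 217 to 314 CPM in wild-type and 234 to 302 CPM in heterozygous libraries. The neutrophil markers were low but present, with Csf3r at 47 to 100, S100a9 at 7 to 40 and S100a8 at 2 to 33 counts a library, while Ly6g was at 0 in 5 of the 6. S100a8 and S100a9 were highest in heterozygous replicate 1 (33 and 40 counts), which also held most Hbegf. Next came wild-type replicate 3 (28 and 23 counts), which held least Hbegf and most Csf3r (100 counts). The part of either cell type in the Hbegf difference was not tested.

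**Figure D1:**
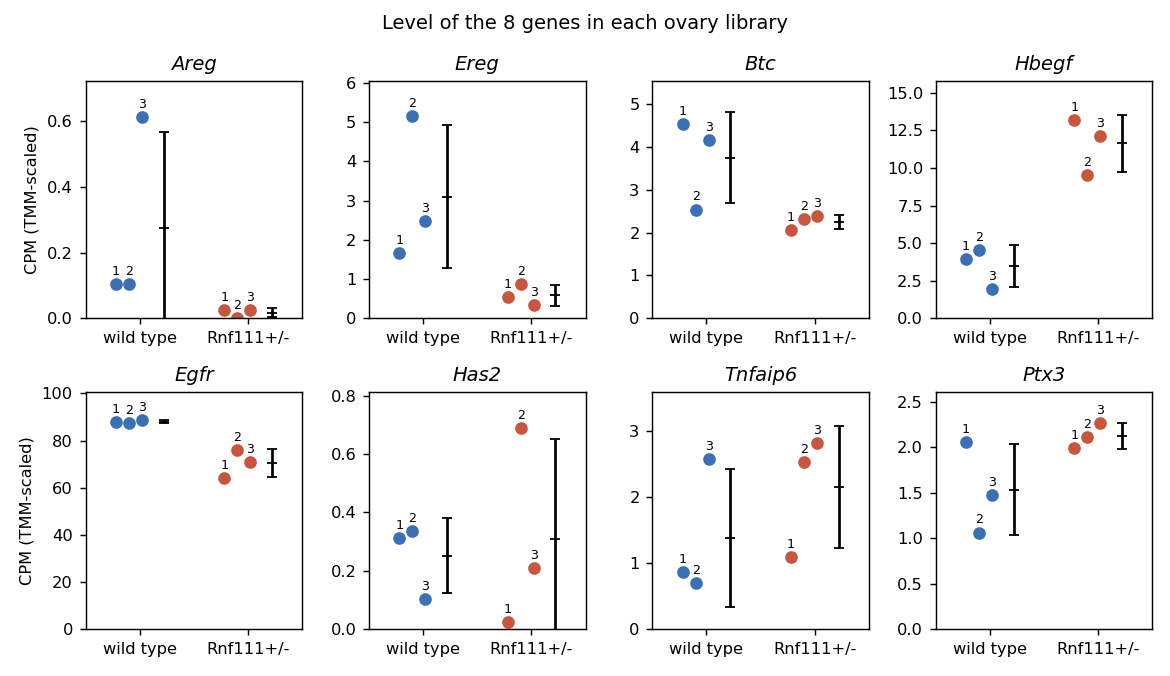
Level of each of the 8 genes in CPM (vertical axis, linear from 0, scaled separately for each gene) in the 3 wild-type (blue) and 3 Rnf111+/- (red) libraries; numbers are replicate numbers and black bars are mean ± SD, cut at 0. The genotypes are apart for Areg, Ereg, Btc, Hbegf and Egfr and overlap for Has2, Tnfaip6 and Ptx3.

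The ligands were compared with each other per kilobase of exon, because longer genes collect more reads. In wild-type ovaries Btc, Ereg and Hbegf were at 0.829 ± 0.235, 0.751 ± 0.442 and 0.718 ± 0.286 CPM per kilobase (SD, n = 3), which did not differ beyond their spread, and Areg was at 0.225 ± 0.242. In heterozygous ovaries the order was Hbegf (2.41 ± 0.39), Btc (0.499 ± 0.0366), Ereg (0.142 ± 0.0645) and Areg (0.014 ± 0.0121), each apart from its neighbour by more than the SDs. The summed length-scaled level of the 4 ligands overlapped between genotypes, at 2.31, 2.84 and 2.42 in wild-type and 3.35, 2.7 and 3.14 CPM per kilobase in heterozygous libraries. Its make-up was apart, with Hbegf at 16.4 to 35.3% of the sum in wild-type and 73.2 to 81.8% in heterozygous libraries. Ereg made up 17.5 to 44% and 2.62 to 7.79%. Among wild-type libraries the leading ligand was Btc in replicates 1 and 3 and Ereg in replicate 2. These shares are a description of the same counts and were not tested separately.

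**Figure D2:**
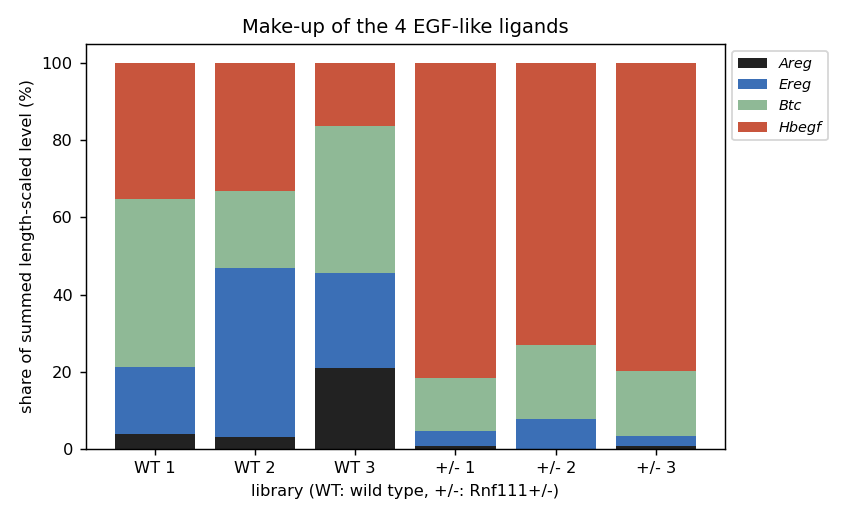
Share (%, vertical axis) of Areg, Ereg, Btc and Hbegf in their summed level per kilobase of exon, for each of the 6 libraries (horizontal axis). Hbegf takes 73.2 to 81.8% in the 3 Rnf111+/- libraries and 16.4 to 35.3% in the 3 wild-type libraries, and Areg reaches 20.8% in wild-type replicate 3 alone.

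Egfr, which encodes the receptor of all 4 ligands, fell by a small amount. Its level was 88, 87.2 and 88.7 CPM in wild-type libraries and 64.2, 75.9 and 71 CPM in heterozygous libraries. Wild-type libraries were nearly identical, and every heterozygous library was below them. The log2 fold change was -0.32 ± 0.08 (SE, adjusted p = 0.0349), a 1.25-fold difference between 88 ± 0.72 and 70.4 ± 5.87 CPM (SD, n = 3 each). The call held in all 7 fits with another scaling, filter, tool or the replicate block, and it held without wild-type replicate 3 (adjusted p = 0.0269). Leaving out any other library ended it, with adjusted p from 0.0617 to 0.11. Markers of endothelium (4 of 6 lower, sums of 349 to 413 against 258 to 293 CPM), of theca and stroma (4 of 8 lower and 1 higher, 3907 to 4191 against 3162 to 4327 CPM) and of surface and oviduct epithelium (5 of 10 lower) also moved between genotypes. Their part in the Egfr difference was not tested.

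The wider EGF family was read from a list of 15 ligands and receptors, of which 11 were tested. Hbegf rose, Ereg and Egfr fell, and 8 did not pass, with a median log2 fold change of 0.00. Tgfa, a ligand of the same receptor, was at 67 and 65.1 CPM (-0.04 ± 0.09, adjusted p = 0.812). Per kilobase, Tgfa (10.3 ± 0.762 in wild type) was above each of the 4 ovulatory ligands in both genotypes. The coreceptor gene Erbb2 had the highest length-scaled level of the list (11.7 ± 0.981) and a log2 fold change of 0.00 ± 0.09 (adjusted p = 0.993). Erbb3 was at 0.16 ± 0.13, and Erbb4 had 0 to 5 counts in every library. Egf itself was at 1.02 and 0.807 CPM (-0.33 ± 0.35, adjusted p = 0.608). Of the neuregulin genes, Nrg1 (0.35 ± 0.25), Nrg2 (0.00 ± 0.19) and Nrg4 (0.23 ± 0.34) did not pass, and Nrg3 had at most 4 counts in a library.

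Genes that release the ligands or act downstream of the receptor were then counted. Among all tested genes, 9.64% were called (3.9% higher and 5.74% lower). Of 22 genes of ligand shedding and receptor feedback, 1 fell and none rose (median -0.11 on the log2 scale), and 2 were called by DESeq2. The fall was that of Rhbdf2, which encodes a regulator of the sheddase ADAM17, from 53 ± 8.6 to 34.6 ± 2.75 CPM (-0.61 ± 0.12, adjusted p = 0.0193). Its call was lost without any 1 of the heterozygous libraries (0.0558, 0.0726 and 0.087). Adam17 itself was at 0.02 ± 0.07 (adjusted p = 0.924), and the receptor inhibitor gene Errfi1 at -0.28 ± 0.16 (adjusted p = 0.341). Of 20 genes that relay the signal from receptor to ERK, 1 rose and 2 fell (median 0.02). The kinase gene Braf rose by 0.28 ± 0.07 (adjusted p = 0.0407), and the adaptor gene Shc1 and the ERK1 gene Mapk3 fell by 0.29 and 0.25 on the log2 scale (adjusted p = 0.0413 for each). Each of these 3 calls ended when any library other than wild-type replicate 3 was left out. With upper-quartile scaling 1 of the 20 was called, and with no filter Mapk3 lost its call (adjusted p = 0.0654). The RNA levels say nothing of receptor phosphorylation, which was not measured here.

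**Figure D3:**
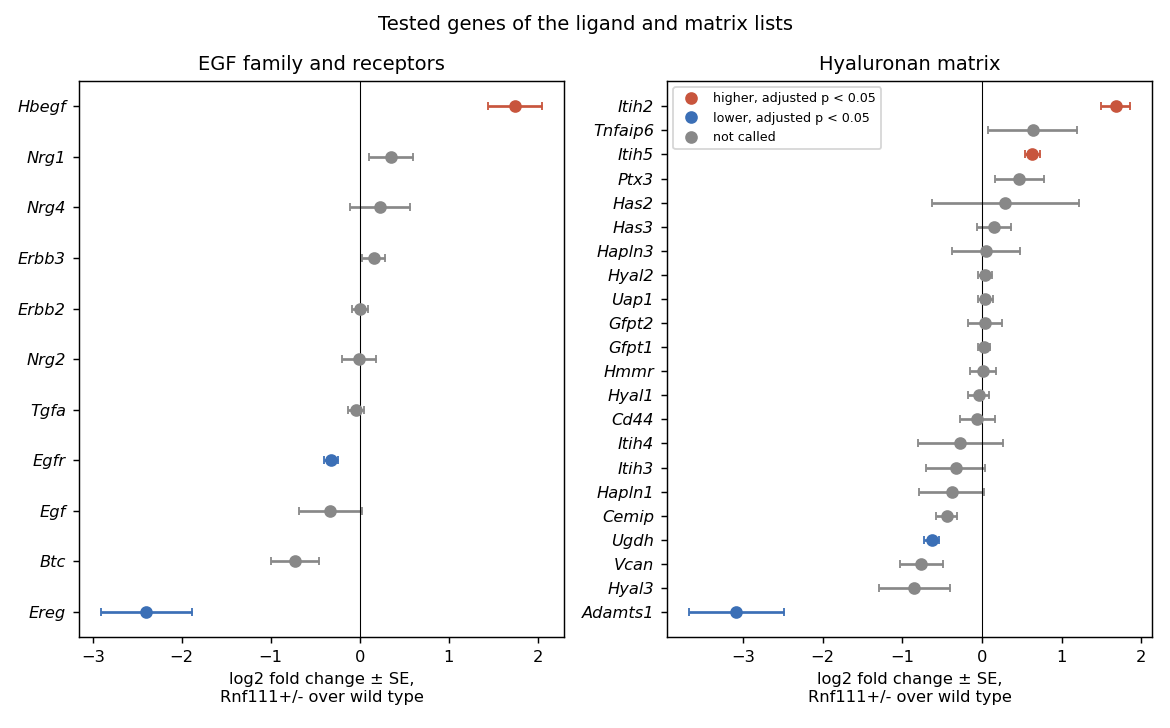
Log2 fold change (Rnf111+/- over wild type, horizontal axis, ± SE) of the 11 tested EGF family genes (left) and the 22 tested genes of the hyaluronan matrix list (right); red and blue mark genes called higher and lower at an adjusted p under 0.05. Hbegf and Itih2 lie farthest to the right and Ereg and Adamts1 farthest to the left.

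None of the 3 matrix genes among the 8 passed the test, and their genotypes overlapped. Has2, the hyaluronan synthase of the cumulus, held 12, 13 and 4 counts in wild-type and 1, 27 and 8 counts in heterozygous libraries (0.313, 0.337 and 0.102, and 0.0249, 0.69 and 0.209 CPM). The heterozygous libraries included both the lowest and the highest value of all 6, with a ratio of 27.7 between them (counting interval 4.56 to 1133). The log2 fold change was 0.29 ± 0.92 (adjusted p = 0.881). It changed sign with the fit, from -1.08 without heterozygous replicate 2 to 0.84 without heterozygous replicate 1, and was -0.40 with limma-voom and -0.03 with the replicate block. Has2os, an antisense gene overlapping Has2 in RefSeq, had 4, 5 and 1 counts in wild-type and none in heterozygous libraries.

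Tnfaip6 encodes the enzyme that transfers heavy chains onto hyaluronan. It was at 0.861, 0.7 and 2.58 CPM in wild-type and at 1.1, 2.53 and 2.82 CPM in heterozygous libraries. Wild-type replicate 3 lay among the heterozygous libraries, and heterozygous replicate 1 lay near the other wild-type libraries. The log2 fold change was 0.64 ± 0.56 (adjusted p = 0.537). Without wild-type replicate 3 it was 1.47 ± 0.45 and passed (adjusted p = 0.0479), and in the other 5 left-out fits it did not pass. Ptx3, which cross-links the heavy chains, was at 2.06, 1.06 and 1.48 CPM in wild-type and 1.99, 2.12 and 2.27 CPM in heterozygous libraries. Wild-type replicate 1 lay inside the heterozygous range, and the log2 fold change of 0.47 ± 0.31 passed in neither the fit of all libraries (adjusted p = 0.39) nor any of 13 alternatives. Ptx3 overlaps Veph1 in RefSeq, which had 7 to 23 counts in a library.

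**Figure D4:**
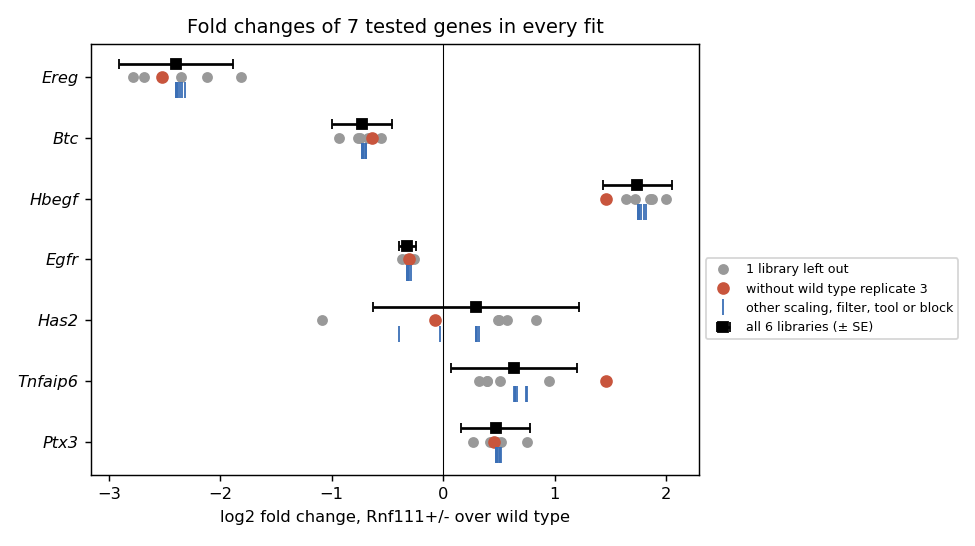
Log2 fold change (Rnf111+/- over wild type, horizontal axis) of the 7 tested genes with all 6 libraries (black, ± SE), with 1 library left out (circles, red without wild-type replicate 3) and under the other alternatives (blue marks). Ereg, Btc and Egfr stay below 0 and Hbegf, Tnfaip6 and Ptx3 above 0 in every fit drawn, whereas Has2 lies on both sides, from -1.08 to 0.84.

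Other genes of the hyaluronan matrix moved where Has2, Tnfaip6 and Ptx3 did not pass. Of 25 genes in the list, 22 were tested, 2 rose, 2 fell and 18 did not pass (median log2 0.02). Over all tested genes 9.64% were called. Itih2, which encodes a heavy chain of the inter-alpha-trypsin inhibitor, was at 6.05, 9.46 and 8.84 CPM in wild-type and 22.6, 26.8 and 28.7 CPM in heterozygous libraries. It rose 3.21-fold (log2 1.68 ± 0.18, adjusted p = 0.00143). Itih5, of the same family, rose from 275 ± 33.3 to 426 ± 10.3 CPM (0.63 ± 0.09, adjusted p = 0.00595). Ugdh, which makes the sugar precursor of hyaluronan, fell from 115 ± 11.5 to 74.4 ± 4.82 CPM (-0.63 ± 0.09, adjusted p = 0.00504). The calls of Itih2, Itih5 and Ugdh held in all 6 left-out fits and all 7 other alternatives.

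Adamts1, the protease that cuts versican in the expanding cumulus, had the largest fold change among the tested genes of that list. Its wild-type libraries were at 248, 122 and 548 CPM, a wide spread, and its heterozygous libraries at 36, 32.8 and 39.5 CPM. The fall was 8.48-fold (-3.08 ± 0.60, adjusted p = 0.0396). It was lost in 4 of the 6 left-out fits (adjusted p of 0.088 to 0.15, without wild-type replicate 1 and without each heterozygous library), and it held when wild-type replicate 3 (-2.35) or wild-type replicate 2 (-3.45) was left out. With no filter on low counts it was also lost (adjusted p = 0.093). Its substrate gene Vcan was at 154, 166 and 309 CPM against 134, 117 and 121 CPM (-0.76 ± 0.28, adjusted p = 0.153), and without wild-type replicate 3 it was at -0.36 ± 0.08 (adjusted p = 0.00882). DESeq2 called Vcan lower with all 6 libraries (-0.75, adjusted p = 0.0105). Both genes were highest in wild-type replicate 3, the library with the high Ovgp1 count, and the part of that was not tested. Itih1 and Ambp, which encodes the light chain that carries the heavy chains, had 0 counts in all 6 libraries. Has1 had 0 to 10 counts in a library. The remaining tested genes did not pass. Among those over 0 were Has3 (0.15), Hapln3 (0.05), Hyal2 (0.04), Uap1 (0.04), Gfpt2 (0.03), Gfpt1 (0.03) and Hmmr (0.01). Those under 0 were Hyal1 (-0.04), Cd44 (-0.06), Itih4 (-0.27), Itih3 (-0.33), Hapln1 (-0.38), Cemip (-0.44) and Hyal3 (-0.85).

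Regulators of the surge response formed the last list, with 26 genes and 24 tested. Of these, 3 rose and 5 fell (median log2 0.07), where 3.9% of all tested genes rose and 5.74% fell. The rises were those of the oocyte factor genes Gdf9 (0.63 ± 0.10) and Bmp15 (0.54 ± 0.13), whose products drive Has2, Tnfaip6 and Ptx3 in cumulus cells, and of Smad3 (0.40 ± 0.08), a transducer of that signal. Gdf9 and Bmp15 are also oocyte markers, and 5 of the 9 oocyte markers rose (Gdf9, Bmp15, Zp1, Zp2 and Nobox), with sums of 164 to 181 CPM in wild-type and 220 to 303 CPM in heterozygous libraries. The part of oocyte RNA content in the Gdf9 and Bmp15 differences was not tested. The falls were those of Runx1 (-1.60 ± 0.09), Star (-0.84 ± 0.12), Runx2 (-1.34 ± 0.25), Cebpb (-0.85 ± 0.19) and Btg2 (-0.82 ± 0.19). Cebpb encodes a transcription factor that ovulatory ligand signalling needs through ERK. Bmp15, Runx2, Cebpb and Btg2 were named after their values were seen, and their calls were each lost in at least 4 of the 6 left-out fits. With no filter, Cebpb (adjusted p = 0.114), Runx2 (0.0933) and Btg2 (0.0841) lost theirs too. Smad3 lost its call when wild-type replicate 1 or heterozygous replicate 2 was left out. Ptgs2, the prostaglandin synthase gene that EGF receptor signalling induces in the cumulus, was at 3.19 and 2.56 CPM (-0.32 ± 0.26, adjusted p = 0.509).

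The spread within a genotype differed widely among the 8 genes. It was measured as the SD of log2 CPM over 3 libraries, pooled over both genotypes, with a median of 0.608 over the 8 genes and 0.178 over all tested genes. Has2 had the largest value, 1.28, above that of 99.2% of tested genes. Tnfaip6 (0.858), Ereg (0.721) and Hbegf (0.496) were above 95.8, 92.8 and 84.4% of them. Ptx3 (0.333) and Btc (0.324) followed, above 73.1 and 72.3%, and Egfr (0.0862) was above 18.8%. Areg, which was not tested, had a value of 0.888. Low counts add to this SD, so the biological coefficient of variation of edgeR was set beside it. It estimates variation beyond counting error, but each gene's value is drawn toward a trend with expression level. It was 0.698 for Has2, 0.479 for Tnfaip6, 0.417 for Ereg, 0.268 for Ptx3, 0.266 for Hbegf, 0.246 for Btc and 0.088 for Egfr, with a median of 0.143 over tested genes. On that scale Has2 was above 99.2% of tested genes, Tnfaip6 above 95.4% and Ereg above 91.8%. Ptx3 was above 75.3%, Hbegf above 74.9%, Btc above 72.3% and Egfr above 10.5%. Ranks on both scales are against tested genes of every level, so they do not show more spread than in genes of like level.

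Some of the 8 genes were more variable in wild-type libraries and others in heterozygous libraries. The SD of log2 CPM in wild-type against heterozygous libraries was 0.445 against 0.106 for Btc, 0.462 against 0.0926 for Ptx3 and 0.658 against 0.242 for Hbegf. It was also larger in wild type for Areg (1.21 and 0.336), Tnfaip6 (0.973 and 0.724) and Ereg (0.811 and 0.617). Has2 (0.748 and 1.64) and Egfr (0.0118 and 0.121) were the more variable in heterozygous libraries. With 3 libraries a genotype, these differences in spread were not tested. The share of all tested genes that were more variable in wild type was not counted. A larger wild-type spread thus cannot be read as particular to these genes. Over all genes, wild-type replicate 3 differed from replicates 1 and 2 with a chi-square per degree of freedom of 59 and 61.62. That value was 11.76 between replicates 1 and 2, and 19.1 to 21.35 between heterozygous libraries. Wild-type replicate 3 was the highest wild-type library for Areg, Tnfaip6 and Egfr and the lowest for Hbegf and Has2, and without it the median spread of the 8 genes was 0.366. For Ereg the wild-type extreme was replicate 2, and for Btc it was a low replicate 2. For Ptx3, replicates 1 (2.06 CPM) and 2 (1.06 CPM) lay on either side of replicate 3 (1.48 CPM).

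**Figure D5:**
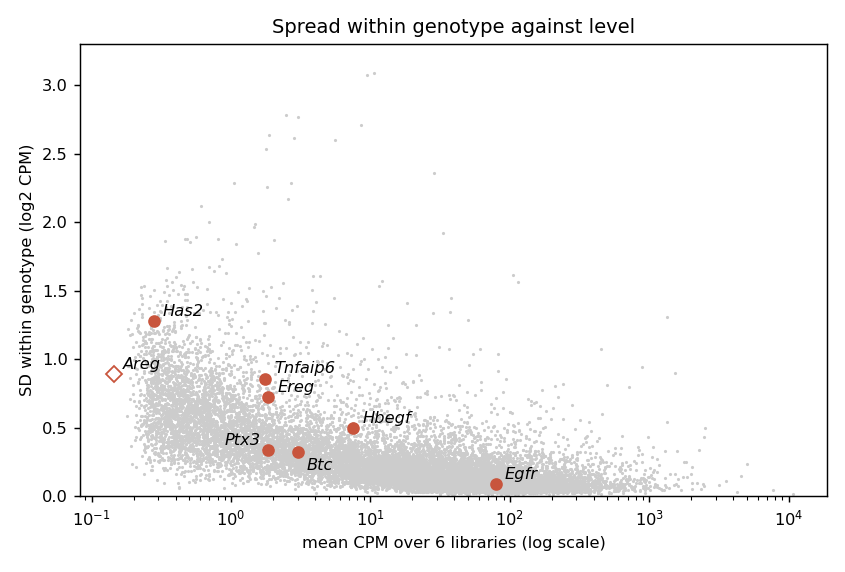
Pooled SD of log2 CPM within genotype (vertical axis) against mean CPM over 6 libraries (horizontal axis, log scale) for all 16841 tested genes (grey) and the 8 genes (red, Areg open because it was not tested). Has2 lies highest of the 8 at 1.28 and Egfr lowest at 0.0862.

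The genes with the most similar pattern were found for the 6 members with a mean of at least 1 CPM. Likeness was the root mean square difference of log2 CPM over the 6 libraries, after each gene's own mean was subtracted, among 14308 other genes. Egfr was closest to Edem3 (0.019), which acts in the breakdown of misfolded proteins, and Slc25a22 (0.038). Hbegf was closest to the pseudokinase gene Trib2 (0.143), at 172 against 544 CPM, and to Bpifb1 (0.152). Ereg was closest to Cd244a (0.399), which encodes a receptor of natural killer cells, and Gm38585 (0.415). Btc was closest to the orphan receptor gene Gpr37 (0.142) and Gm38684 (0.149), Ptx3 to Gm46404 (0.094) and Nxf3 (0.126), and Tnfaip6 to Gm52290 (0.295) and Csf2rb (0.3). The nearest genes of Ereg and Tnfaip6 were farther away than those of Egfr. This distance was not scaled by a gene's own spread, so it cannot be compared between members of unlike spread.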

How the data were processed

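Bulk RNA sequencing of 6 ovaries was analysed. The authors deposited whole-number read counts per gene, 1 column for each library. The submitters' processing notes name fastp (0.20.1), HISAT2 (2.1.0), HTSeq (0.11.2), DESeq2 and build GRCm39. Their roles, the annotation and the strand setting were not given in the sources used here. Every column had a sample, and no pair of libraries matched within sampling noise (chi-square per degree of freedom of at least 11.8).

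The deposited counts went into edgeR (4.0.16, R 4.3.3), with the default filterByExpr thresholds (count 10, total 15), scaling by the trimmed mean of M values, and a robust two-sided quasi-likelihood test of genotype, with Benjamini-Hochberg adjustment across the 16841 genes tested, called under 0.05. Adjusted p-values are from edgeR where no other tool stands beside them. A positive log2 fold change means a higher heterozygous level. The SE is the absolute log2 fold change over the square root of F. SDs of log2 CPM use a prior count of 2. Counting intervals are exact 95% Clopper-Pearson intervals and, like the floor of 3 counts, cover counting error only. Exon lengths are unions of GENCODE M21 exons (GRCm38). The permutation test used log2 of CPM plus 0.05. The fits were tested on simulated data.

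Alternatives were DESeq2 size factors or upper-quartile factors in edgeR, no filter, a stricter filter (at least 1 CPM in 3 libraries, and a total of 50 counts), DESeq2 (1.42.0), limma-voom (3.58.1), the replicate number as a block and each library left out. The 8 genes and all lists were chosen with earlier results of these data known, so counts over them are not independent support. Genes were named by rule: the 8 genes, Rnf111, all genes of the EGF family and hyaluronan matrix lists, up to 4 called genes of smallest p from the other lists, and the 2 genes most like each member. Other genes named (Adam17, Errfi1, Ptgs2, markers, neighbours and overlapping genes) were chosen after their values were seen. Libraries come from separate mice per the labels. Marker lists of mast cells (1 of 6 higher), smooth muscle (3 of 6 lower) and luteal cells (2 of 8 lower) were also counted. Luteal genes went both ways, and 3 of the 8 were over 0 without passing. They were Akr1c18, Sfrp4 and Ptgfr (log2 3.13, 2.56 and 1.79). The luteal marker sum was 6872 to 7880 CPM in wild-type and 8958 to 11777 CPM in heterozygous libraries.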

Additional observations from a re-analysis of the deposited data

How the results depend on the processing

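Directions of Ereg, Btc, Hbegf, Egfr, Tnfaip6 and Ptx3 were the same in every fit run, and that of Has2 was not. With DESeq2, 2615 genes were called (1172 higher), against 1623 (657 higher and 966 lower). The genes of shedding and feedback called numbered 2 with upper-quartile scaling, no filter, DESeq2 and limma-voom, against 1, and those of the relay to ERK 1 with upper-quartile scaling, against 3; the cause was not tested. With 1 library left out, genes called ranged from 530 to 2795 (higher 224 to 1273, lower 297 to 1522), and members called from 0 to 4. Called genes ranged from 0 to 3 in the EGF family, 0 to 3 in shedding and feedback, 0 to 4 in the relay, 3 to 6 in the hyaluronan matrix and 3 to 8 among surge regulators, and the median spread from 0.366 to 0.677. The highest number of genes called was that without wild-type replicate 3. Rnf111 lost its call with upper-quartile scaling (adjusted p = 0.0602), no filter (0.0762) and the replicate block (0.0653).

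With the replicate block, 1626 genes were called and 3 members, and Adamts1 (adjusted p = 0.0573), Braf (0.0576), Mapk3 (0.0574) and Runx2 (0.0709) lost their calls. Deviations of same-numbered libraries correlated at 0.01, 0.01 and 0.10 across genes, and those of other pairs at -0.07 to 0.06. With 3 libraries a genotype, these values cannot tell whether same-numbered libraries shared a litter or a day. The labels do not say so. Has2 could not be tested with the stricter filter. At these depths, counts of a few reads for Areg and Has2 limit what can be told of them.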
